A study of Mus musculus with 4 samples.

Results

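GABA is the main inhibitory transmitter of the adult cortex, and its receptor subunits and synthesizing enzymes were followed here in the prefrontal cortex of mice carrying extra human synaptic AChE (acetylcholinesterase, which splits acetylcholine). The members were all probe sets whose single gene symbol begins with Gabr or Gabbr, or is Gad1, Gad2 or Abat. There were 14 such probe sets of 13 genes, out of 12422 probe sets on the array and 8251 singly named genes. A probe set is a group of array probes read as 1 intensity. Gabra6 had 2 probe sets and the other 12 genes had 1 each, and Abat, which breaks GABA down, had none under that rule. RNA came from 2 control pools of female FVB/N mice and 2 transgenic pools of female mice, each pool from 4 mice and each on 1 array. The labels do not give the age, the strain of the transgenic mice, the transgene's promoter, or whether both pools of a group hold different animals. P-values therefore measure only the spread between these pools, which may be technical.

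GABA is made from glutamate by glutamate decarboxylases, encoded by Gad1 and Gad2. It opens type A receptors, chloride channels assembled from alpha, beta, gamma, delta and related subunits, and it acts through type B receptors, which signal through G proteins to potassium and calcium channels. The subunits present decide where a type A receptor sits and which drugs and steroids act on it. In the cortex most GABA is released by local interneurons, and astrocytes also carry GABA receptors and transporters.

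On the arrays as a whole, the median intensity ran from 86.6 to 88.2, and between 24.0% and 25.9% of values of an array lay at or below the intensity floor of 19.675. In the transgenic pools 407 of the 7453 tested probe sets were higher (5.46%) and 340 lower (4.56%), together 747 (10%). All pools are labelled female. No probe set of Uty, Kdm5d or Eif2s3y, which lie on the Y chromosome, exceeded 28. Xist, the RNA of the inactive X chromosome, gave 29.3 and 21.1 in control against 178.5 and 228 in transgenic pools, so its control signal lay close to the floor and does not bear out the labelled sex. The mouse Ache probe set read 599.5 and 621.9 in control pools and 365.3 and 355.6 in transgenic pools. It is not known to read the human transgene, so it does not check the labels. Of 6 tested markers of cortical projection neurons the brightest were Tbr1, a transcription factor, at 1317.5 to 1817.7, and Nrgn, a postsynaptic protein, at 1464.5 to 2470.4. The others were dimmer at their brightest probe sets: Fezf2 read 367.9 to 466.4, Neurod6 216 to 345, Neurod2 132.1 to 626.3 and Camk2a 31.2 to 136.6. The 3 choroid plexus markers on the array summed to between 50.3 and 92.3.

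Only Gabrb1 and Gabra3 passed, in opposite directions, and their promoter windows are shown because these are the start sites of those genes. The windows run from 250 bases before to 50 bases after a RefSeq start (mouse build GRCm38.p6), 5′ to 3′, and capitals mark each CG dinucleotide, which reads the same on both strands. Gabrb1 has 2 such starts, on the plus strand at chr5:71657671-71657970 and chr5:71699682-71699981. Gabra3 has 2 overlapping ones on the minus strand of chromosome X, of which chrX:72656870-72657169 is printed.
Gabrb1, upstream start: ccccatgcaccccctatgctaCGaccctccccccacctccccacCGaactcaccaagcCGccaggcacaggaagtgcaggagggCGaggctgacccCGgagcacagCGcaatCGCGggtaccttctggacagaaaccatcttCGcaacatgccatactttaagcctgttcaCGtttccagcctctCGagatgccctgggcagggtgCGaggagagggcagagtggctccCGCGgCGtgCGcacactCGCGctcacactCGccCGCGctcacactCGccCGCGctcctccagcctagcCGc
Gabrb1, downstream start: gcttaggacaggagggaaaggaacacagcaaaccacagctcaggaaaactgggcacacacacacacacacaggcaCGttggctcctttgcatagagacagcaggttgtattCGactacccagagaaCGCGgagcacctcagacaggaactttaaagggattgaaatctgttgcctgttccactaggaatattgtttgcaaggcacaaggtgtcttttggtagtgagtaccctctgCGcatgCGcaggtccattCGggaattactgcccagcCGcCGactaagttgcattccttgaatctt
Gabra3: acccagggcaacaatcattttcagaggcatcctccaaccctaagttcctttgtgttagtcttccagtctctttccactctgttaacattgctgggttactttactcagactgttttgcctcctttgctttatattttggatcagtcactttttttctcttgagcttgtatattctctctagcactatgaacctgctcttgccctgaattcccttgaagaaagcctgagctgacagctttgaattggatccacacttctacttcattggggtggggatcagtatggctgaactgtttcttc
The Gabrb1 windows held 25 and 9 CG and the 2 Gabra3 windows held 0. Over 32851 windows of this length the median was 7 CG, 94.6% held at least 1, 18.4% held at least 25 and 45.8% at least 9. Windows were found for 12 of the 13 genes, all but Gabrd. The arrays do not show which start is used, and the CG count is a description of the sequence only.

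Gabrb1 rose and Gabra3 fell. The change of Gabrb1, at 12.2-fold, ranked number 30 from the top of all 7453 tested probe sets and number 7 by p. Gabra3 ranked number 38 from the bottom. Of the 14 GABA probe sets 8 passed the filter on dim values and were tested, each for a different gene. A probe set was tested when its geometric mean over the 4 arrays exceeded 49.4. Among these 8, 1 was higher and 1 lower, against 5.46% and 4.56% of all tested probe sets. The control and transgenic pools did not overlap in 5 of the 8 (62.5%), where 53.7% of all tested probe sets did not overlap, so that count lies near the background. An unadjusted p under 0.05 from limma was reached by 4 of the 8, and by 1811 of all 7453. The median log2 change (transgenic minus control, on floored log2 intensities) was -0.05 for the 8 and -0.03 over all tested probe sets. Members under the filter could not be called even if they were present in 1 group only.

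**Figure D1:**
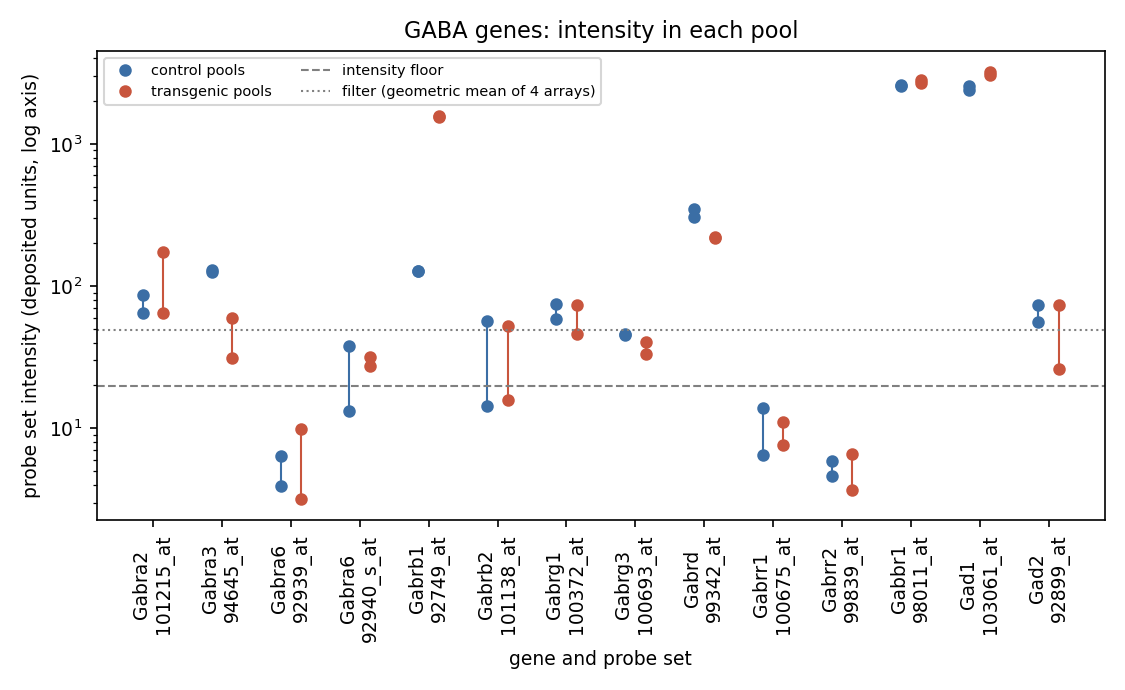
Intensity of the 14 GABA probe sets on a log axis, with 1 point for each pool and a line joining the 2 pools of a group. Control points are blue, transgenic points red, the dashed line is the floor of 19.675 and the dotted line the filter of 49.4, which applies to the geometric mean of the 4 arrays. Gabrb1 is the one probe set whose transgenic points (1548.3 and 1562.5) lie far above its control points (126.9 and 127.8).

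Among the beta subunits, which line the GABA binding site together with alpha subunits, Gabrb1 (92749_at) read 126.9 and 127.8 in control pools and 1548.3 and 1562.5 in transgenic pools. Within a group the values were nearly equal, and the groups lay far apart. The group means were 127 ± 0.636 and 1555 ± 10.04 (SD, n = 2 pools per group). The log2 change was 3.61 ± 0.14 (SE; 95% interval 3.30 to 3.92), with an adjusted p of 3.75e-07 from limma. Gabrb1 has no second probe set here, so the rise rests on 1 probe set. Gabrb2 (101138_at), the beta subunit of the most common cortical receptors, was not tested. It read 56.7 and 14.3 in control pools and 15.7 and 52.4 in transgenic pools. Each group had 1 array below the floor and the groups overlapped fully.

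Among the alpha subunits, which carry the benzodiazepine site with a gamma subunit, Gabra3 (94645_at) read 129.4 and 124.8 in control pools and 31.3 and 59.5 in transgenic pools. Both transgenic pools were below both control pools, but they differed from each other by 0.93 on the log2 scale, against 0.05 between the control pools. The fall was 2.94-fold (log2 change -1.56 ± 0.34 SE, 95% interval -2.32 to -0.79, adjusted p = 0.0192 with limma). Without transgenic replicate 1 the adjusted p was 0.0872, without the intensity trend 0.0507 and without the filter 0.306, so the call ended in those settings. Gabra3 lies on the X chromosome, and Xist was higher in the transgenic pools (log2 change 3.02 ± 0.31), a difference whose part in this fall was not tested.

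Gabra2 (101215_at), another benzodiazepine-sensitive alpha subunit, read 64.6 and 85.9 in control pools and 64.9 and 172.6 in transgenic pools. The first transgenic pool lay within the control range and the second above it. The log2 change was 0.51 ± 0.42 (95% interval -0.42 to 1.44, adjusted p = 0.51). Without transgenic replicate 2 it was -0.20, so the sign rested on that pool. Gabra6, the alpha subunit of cerebellar granule cells, was not tested at either probe set. At 92939_at it read 3.9 and 6.4 against 3.2 and 9.9, below the floor on all 4 arrays. At 92940_s_at it read 13.2 and 38 against 27.2 and 31.8, with 1 control array below the floor.

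The delta subunit replaces gamma in receptors outside the synapse, which carry a steady inhibitory current. Its gene Gabrd (99342_at) read 348.9 and 307.7 in control pools and 219.4 and 221.8 in transgenic pools. Both transgenic values were below both control values, and the log2 change of -0.57 ± 0.16 (95% interval -0.94 to -0.21) lay just outside the threshold (adjusted p = 0.0566). It passed with median scaling of the arrays (adjusted p = 0.0496) and with the filter at the 60th percentile (adjusted p = 0.0418), and did not pass in the 12 other settings.

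Of the gamma subunits, Gabrg1 (100372_at) read 58.7 and 75 in control pools and 46.3 and 73.8 in transgenic pools. The groups overlapped, with a log2 change of -0.18 ± 0.34 (95% interval -0.95 to 0.58, adjusted p = 0.798). Without transgenic replicate 1 the change was 0.15. Gabrg3 (100693_at) read 46.1 and 44.9 against 33.3 and 40.1. It was the only untested member whose groups did not overlap, and it was lower in both transgenic pools. The rho subunits, best known from the retina, lay below the floor on every array: Gabrr1 (100675_at) read between 6.5 and 13.8, and Gabrr2 (99839_at) between 3.7 and 6.6.

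The type B receptor is read here through Gabbr1 (98011_at), which encodes the subunit that binds GABA. It gave 2605.7 and 2569.4 in control pools and 2796.8 and 2691 in transgenic pools. Both transgenic values were slightly higher, but the log2 change was small (0.08 ± 0.10, 95% interval -0.15 to 0.32, adjusted p = 0.683). The interval leaves room for a rise of up to 0.32 or a fall of up to 0.15 on the log2 scale.

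The 2 decarboxylases were read very differently. Gad1 (103061_at), the enzyme that makes most of the basal GABA, gave 2409.2 and 2549.3 in control pools and 3035.8 and 3198.5 in transgenic pools. Both transgenic values were above both control values, a log2 change of 0.33 ± 0.11 (95% interval 0.09 to 0.57). Its adjusted p of 0.0846 did not pass, nor did it in any of 14 other settings (0.067 to 0.375). Gad2 (92899_at), the decarboxylase tied to nerve terminals, gave 73.1 and 56.2 against 26.2 and 73.8. The second transgenic pool was as high as the first control pool and the first was low, so the log2 change of -0.54 ± 0.48 (95% interval -1.62 to 0.53, adjusted p = 0.546) did not exceed the spread between pools. Without transgenic replicate 1 it was 0.20.

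**Figure D2:**
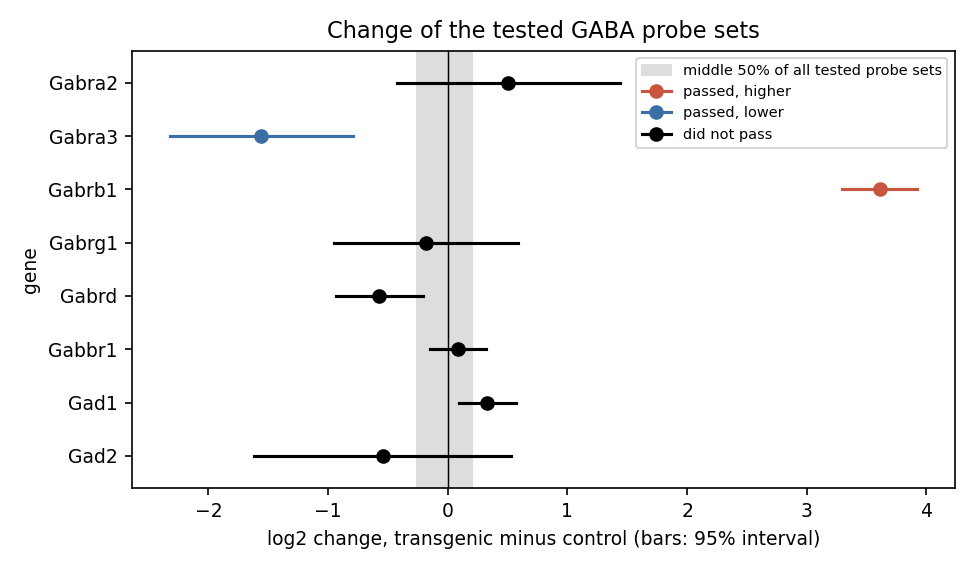
Log2 change of the 8 tested GABA genes, transgenic minus control, with 95% intervals from the limma fit (n = 2 pools per group). The grey band spans the middle 50% of all tested probe sets, from -0.26 to 0.21. Gabrb1 lies at 3.61 and Gabra3 at -1.56, and the intervals of Gabra2, Gabrg1, Gabbr1 and Gad2 include 0.

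**Figure D3:**
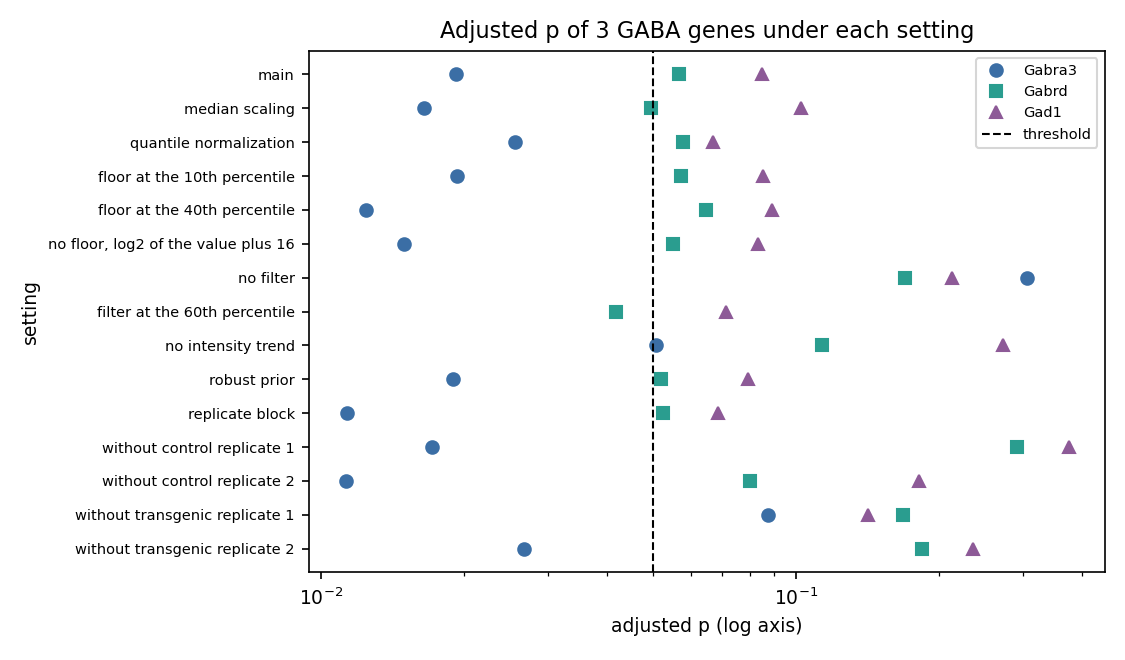
Adjusted p of Gabra3, Gabrd and Gad1 on a log axis in the main analysis and under 14 other settings, with the threshold of 0.05 as a dashed line (Gabra3 was not tested with the filter at the 60th percentile). Gabra3 lies to the right of the line in 3 settings, Gabrd to the left of it in 2, and Gad1 always to the right.

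Several members are neighbours on the chromosome in RefSeq order. Gabrb1 follows Gabrg1, Gabra2 and Gabra4 on chromosome 5, with Cox7b2 between Gabra2 and Gabra4. Of this cluster Gabrg1 (log2 change -0.18) and Gabra2 (0.51) did not pass, and Gabra4 had no probe set of its own name. On the other side Corin, a membrane protease, read 15.2 and 23.7 in control pools and 7.9 and 1.7 in transgenic pools and was not tested. On the X chromosome, the tested genes within 4 places of Gabra3 were Cetn2 (log2 change -0.14) and Nsdhl (0.23, -0.06 and -0.19 at 3 probe sets), and none of these passed. A difference between the groups in strain background cannot be told apart from the transgene for any of these genes.

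The other genes of GABA signalling were read from 6 lists, each gene at its brightest tested probe set. Of 62 listed genes 37 were on the array and 32 were tested, of which 0 rose and 1 fell, against 5% and 4.49% of all genes read this way. An unadjusted p under 0.05 was reached by 6 of the 32 (18.75%), below the 24.1% of all genes read this way. Their median log2 change was -0.01, against -0.04 over all genes. The gene that fell was Slc12a5, the neuronal potassium-chloride exporter that keeps chloride low inside mature neurons. It read 129.3 and 114.6 in control pools and 53.3 and 55.1 in transgenic pools, with no overlap (log2 change -1.17 ± 0.26, adjusted p = 0.0196). The call ended without control replicate 1 (adjusted p = 0.091), without transgenic replicate 1 (0.0885) and without transgenic replicate 2 (0.092), each with a limma fit on 3 arrays, and without the filter (0.176). Slc12a2, the importer that works against it, read 509.8 and 634.5 against 748.6 and 777.7. Its log2 change of 0.42 ± 0.15 did not pass (adjusted p = 0.111). It was 0.58 without control replicate 2 and 0.27 without control replicate 1. Wnk1, a kinase that controls both transporters, had a log2 change of 0.29 ± 0.12 (adjusted p = 0.177).

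Clcn3, a chloride-proton exchanger of endosomes and synaptic vesicles, disagreed between its 4 probe sets. At the brightest (102786_at) it read 2095.5 and 2078.3 in control pools and 2051.4 and 2300.6 in transgenic pools, a log2 change of 0.06 ± 0.11. At 94464_at it read 60.4 and 58.7 against 1068.2 and 1313.6 (log2 change 4.31 ± 0.17, adjusted p = 3.85e-07), and at 94465_g_at it rose by 3.52 ± 0.20 (adjusted p = 3.29e-06). At 94463_at the change was -0.16 ± 0.20. The rise was seen at 2 of 4 probe sets, and the brightest was not one of them.

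Genes that move, clear or anchor the components gave no calls at their brightest probe sets. Slc32a1, which loads GABA into vesicles, read 2389.8 and 2692.5 against 3044.3 and 2376.4 and overlapped (log2 change 0.08 ± 0.14). Slc6a13, a GABA transporter of the meninges and vessels, had 0.22 ± 0.15. Gphn, the scaffold gephyrin of inhibitory synapses, had 0.09 ± 0.15 (95% interval -0.24 to 0.42), and Gabarap, a receptor trafficking protein, -0.07 ± 0.12. Of 11 tested scaffold and trafficking genes 8 lay below 0 and 3 above, with a median log2 change of -0.01. Over the whole array 4039 of the 7453 tested probe sets lay below 0. Nsf, the fusion ATPase that also helps deliver receptors to the membrane, read 3281.5 and 2230.6 against 1460.8 and 1942. Its log2 change of -0.68 ± 0.19 had an adjusted p of 0.0527. Its size rested on single pools: it was -0.96 without control replicate 2, -0.41 without control replicate 1 and -0.48 without transgenic replicate 1. Of the 4 tested metabolic genes 0 passed, with Glul, the astrocytic glutamine synthetase, at -0.47 ± 0.19 (adjusted p = 0.171). Glul was at -0.73 without control replicate 1, -0.21 without control replicate 2 and -0.28 without transgenic replicate 1.

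Effectors of the type B receptor gave 0 calls among 5 tested genes at their brightest probe sets. Kcnj9, a potassium channel opened by G proteins, read 539.3 and 465.1 against 742.6 and 638.3, with a log2 change of 0.46 ± 0.15 (adjusted p = 0.089). Gnao1, the G protein most abundant in neurons, had 0.04 ± 0.10 at its brightest probe set (103843_at). It fell by 1.18 ± 0.29 at 100388_at (adjusted p = 0.0309), which read 238.2 and 170.2 against 67.7 and 116.1, and 2 other tested probe sets did not pass. That call ended without control replicate 1 (adjusted p = 0.0775), transgenic replicate 1 (0.187) or transgenic replicate 2 (0.0573). The glycine receptor genes Glra1 and Glrb, which form related chloride channels, had -0.03 ± 0.24 and -0.11 ± 0.14 and did not pass.

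**Figure D4:**
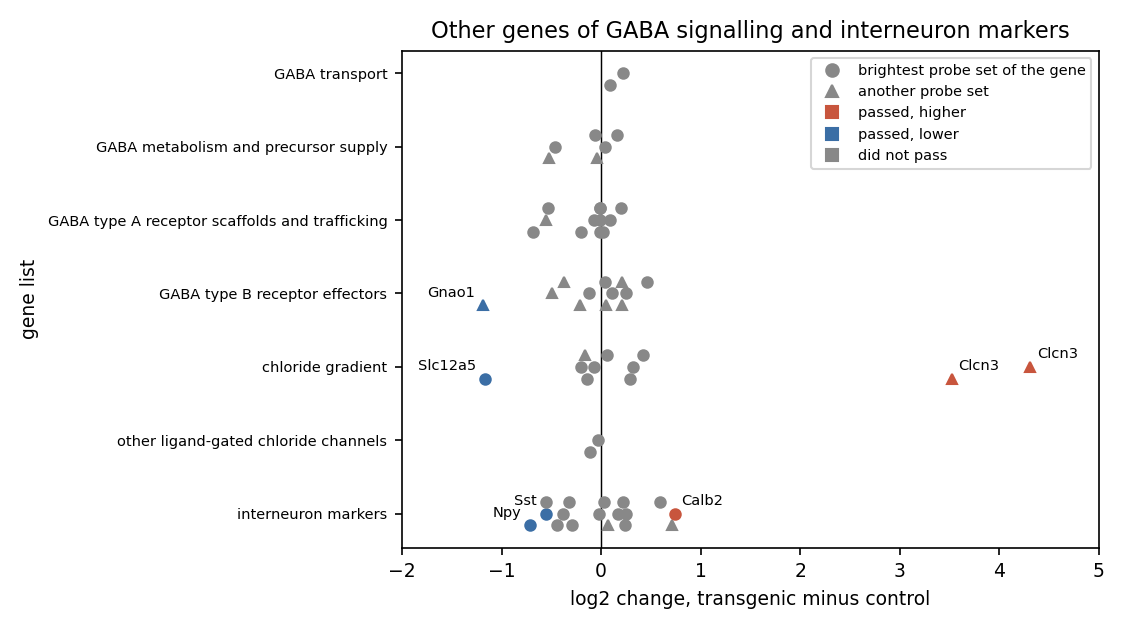
Log2 change, transgenic minus control, of every tested probe set in the 6 lists of other GABA signalling genes and in the list of interneuron markers. Circles are the brightest probe set of a gene and triangles its others, and colours mark those that passed higher (red) or lower (blue). The 2 risen Clcn3 probe sets, at 4.31 and 3.52, stand apart from the rest of the lists.

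Markers of the cells that make GABA moved both ways beside Gad1. Of 20 interneuron markers 18 were on the array and 15 were tested, of which 1 rose and 2 fell, against 5% and 4.49% of all genes read this way. Of the 15 tested markers 7 lay above 0 and 8 below, with a median log2 change of -0.02. Npy, a peptide of cortical interneurons, read 2927.3 and 2757 in control pools and 1750 and 1717.6 in transgenic pools, a log2 change of -0.71 ± 0.11 (adjusted p = 0.00253). Sst, which encodes somatostatin, read 2928.9 and 3502.9 against 2266.7 and 2087.2 (log2 change -0.56 ± 0.12, adjusted p = 0.0192). Calb2, which encodes the calcium-binding protein calretinin, read 828.7 and 553.9 against 1286.9 and 1002.5 (log2 change 0.75 ± 0.20, adjusted p = 0.0445). Including these 3 genes, the groups did not overlap for 10 of the 15 tested markers, where 53.9% of all genes read this way did not overlap. Npy kept its call with each pool left out and lost it without the intensity trend (adjusted p = 0.0569) and without the filter (0.0876). Pvalb, the marker of fast-spiking interneurons, had 0.03 ± 0.13 and Vip -0.44 ± 0.23, and neither passed. In 14 other settings Sst kept its call in 9 and Calb2 in 6. With every pool kept, the Calb2 call ended under quantile normalization (adjusted p = 0.0606), the floor at the 40th percentile (0.0587) and a robust variance prior (0.0589). It also ended without the intensity trend (0.167) and without the filter (0.428). The calls of Sst and Calb2 ended without control replicate 2 (adjusted p = 0.108 and 0.134), without transgenic replicate 1 (0.0939 and 0.284) or without transgenic replicate 2 (0.157 and 0.152). The summed level of the 18 markers was 17359.5 to 18273 in the control pools and 14279 to 15610.7 in the transgenic pools, with Erbb4 at the floor on every array. The lower sum was carried by the bright probe sets of Cck, Sst and Npy, of which Cck, a peptide of interneurons and some projection neurons, read 6552.8 and 6007.9 against 5102.3 and 4568.8 and did not pass (log2 change -0.38 ± 0.11, adjusted p = 0.0521). In pooled tissue RNA, fewer cells of a type and less RNA per cell cannot be told apart.

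Markers of other regions and cells also differed between the groups, and their part in the Gabrb1, Gabra3 and Gad1 values was not tested. The counts below stand against 5% higher and 4.49% lower over all genes read this way. Of 5 olfactory bulb and neuroblast markers, tissue rich in GABA neurons, 4 rose (Sox11, Meis2, Eomes and Th), and their sum was 732 to 929.8 in the control pools and 1308.2 to 1637.8 in the transgenic pools. All 4 calls ended without transgenic replicate 1 (adjusted p = 0.0873, 0.102, 0.205 and 0.225 in that order), and all but that of Sox11 without transgenic replicate 2 (0.0506, 0.205 and 0.149). Without control replicate 2 those of Eomes (0.0959) and Th (0.197) ended. Both tested blood markers rose (Hba-a1, which encodes alpha globin, and Alas2), with sums of 2396.4 to 2779.4 and 6945.1 to 8472.8. Of 7 astrocyte markers 2 rose (Aqp4 and Fabp7) and 1 fell (S100b), with sums of 7772.6 to 7834.9 and 8519.8 to 9181.6. The higher sum rested on Fabp7 and Aqp4, since 3 of the 7 lay above 0 and 4 below, with a median log2 change of -0.01. At its brightest probe set Aqp4 read 36.7 and 47.5 in control pools and 424.3 and 684.5 in transgenic pools. That was a log2 change of 3.69 ± 0.26 (adjusted p = 1.49e-05 with limma), and its dimmer probe set had 2.10 ± 0.36. Fabp7 changed by 1.54 ± 0.12 and S100b by -0.67 ± 0.14. Of 8 microglia markers 1 fell (Tyrobp, log2 change -0.95 ± 0.19, adjusted p = 0.0127) and 0 rose, 7 lay below 0, and the median was -0.32. Their sums were 2771.7 to 2872.6 in the control pools and 2214.8 to 2522.2 in the transgenic pools. Of 5 tested endothelial markers 1 rose (Flt1, log2 change 0.85 ± 0.18, adjusted p = 0.0185) and 0 fell, with sums of 711.6 to 721.2 and 924.8 to 979.5. Flt1 also rose at its dimmer probe set 98453_at, from 17 and 19.5 in control pools to 169.8 and 152.8 in transgenic pools. There the log2 change was 3.03 ± 0.31 (adjusted p = 0.000186 with limma), a lower bound since the control values lay below the floor. It passed in 12 of 13 other settings. The Flt1 values further below are those of its brightest probe set. Of 6 projection neuron markers 1 rose (Neurod2, log2 change 2.07 ± 0.17) and 1 fell (Camk2a, -1.54 ± 0.35). Without transgenic replicate 1 the adjusted p of the blood marker Alas2 was 0.0987, that of S100b 0.113, that of Camk2a 0.101, that of Tyrobp 0.054 and that of Flt1 0.0986. Without transgenic replicate 2 it was 0.0981 for Alas2, 0.0902 for S100b, 0.112 for Tyrobp and 0.123 for Flt1, and without control replicate 1 it was 0.0751 for S100b. Of 5 cerebellar markers Zic1 rose and 0 fell, while Gabra6 lay below the filter. Of 6 thalamus markers only Calb2, also in the interneuron list, passed, and 0 of 5 oligodendrocyte and 0 of 2 striatum markers passed at their brightest probe sets. The oligodendrocyte marker Mobp disagreed between probe sets. It had a log2 change of 0.06 ± 0.15 at its brightest (100536_at) and fell at 99047_at (-1.02 ± 0.19, adjusted p = 0.00955). At 99048_g_at (-0.85 ± 0.25) and 99046_at (-0.65 ± 0.30) it did not pass. The call at 99047_at was kept in 10 of 14 other settings. Without the filter, 0 of the 17 marker genes called at their brightest probe sets passed (adjusted p from 0.0599 to 0.428), and without the intensity trend 10 did. The fit without the filter also takes in probe sets with no spread after flooring, so it changes the variance prior as well.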

How the data were processed

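The labels place 2 pools in each group by title. The deposited values are linear intensities, 1 for each probe set on each array. Their trimmed means of 249.5 to 249.6 show that the authors had scaled the 4 arrays alike. The software was not given in the sources used here. Control probe sets (66) were left out. Medians differed by 1.85% and upper quartiles by 2.29%, so no normalization was added. Values were floored at the 25th percentile (19.675) and log2-transformed, and probe sets with a mean above the 40th percentile were tested (7453). Differences were fitted over that whole table with limma 3.58.1 in R 4.3.3 (lmFit, eBayes with intensity trend, two-sided), with Benjamini-Hochberg adjustment, and passed at an adjusted p under 0.05. Residual degrees of freedom were 2 and those of the prior 7.51, and the number of arrays limits the precision. The fit was tested on simulated data. SEs and 95% intervals come from it, and folds are powers of 2 of the log2 changes.

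Of 12422 probe sets 10833 carried 1 gene symbol, 396 several and 1193 none. Symbols come from an old platform annotation, of which 10817 were replaced by the RefSeq symbol (GRCm38.p6) of the same gene identifier. Every member is named at every probe set. Of the 6 related lists the gene that passed and some of those with smaller p are named, and of the marker lists the genes that passed. Clcn3 and Gnao1 are named outside that order. Some genes with smaller p, such as Gnai1 (log2 change 0.25 ± 0.12, limma adjusted p = 0.24), are not named above. Gphn, Gabarap, Pvalb, Vip, Cck, Tbr1, Nrgn, Fezf2 and Neurod6 were added after their values were seen. So were the dimmer probe sets of Clcn3, Gnao1, Mobp, Flt1 and Aqp4. The members and lists were chosen with earlier results of these data known. Alternatives changed the scaling, floor, filter, variance prior and replicates. Detection calls and probe sequences were not used here.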

Additional observations from a re-analysis of the deposited data

How the results depend on the processing

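Across 14 other settings Gabrb1 kept log2 changes from 3.45 to 3.62 and, with all 4 arrays, a limma adjusted p of at most 0.012. Gabra3 was tested in 13 and passed in 10. The count of GABA probe sets and of GABA genes called was 2 in the main analysis, 3 with median scaling (1 higher, 2 lower), 1 without the filter and 1 without the intensity trend, and it ran from 1 (without transgenic replicate 1) to 2 with 1 pool left out. With the filter at the 60th percentile the 2 were Gabrb1 and Gabrd, since Gabra3 was not tested there. The fit without the filter takes in 2155 probe sets at or below the floor on all 4 arrays, which have no spread after flooring. Its variance prior differs: the SE of Gabrb1 was 0.024 there and 0.14 in the main analysis. Calls that ended without the filter therefore cannot be ascribed to weak signal alone. Over the whole array 747 probe sets passed, 48 without the filter, 395 without the intensity trend and 303 to 749 with 1 pool left out (303 without transgenic replicate 1 and 313 without transgenic replicate 2). Of the 747 calls 407 were higher and 340 lower, against 300 and 347 with the filter at the 60th percentile and 272 and 123 without the trend.

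Of the related genes 1 was called in the main analysis, 2 with median scaling, 2 with no floor, 0 without the filter, 3 when any probe set counted and 0 to 3 with 1 pool left out. Changes of sign were seen for 3 members, none of which passed: Gabra2 was -0.20 without transgenic replicate 2, and without transgenic replicate 1 Gabrg1 was 0.15 and Gad2 0.20. With 1 pool left out Gabra2 ran from -0.20 to 1.21, Gabrg1 from -0.52 to 0.15 and Gad2 from -1.29 to 0.20. The causes were not tested. Fits on 3 arrays assume that the lone pool varies like the other group. With the replicate number as a block, 892 probe sets passed, 2 of them GABA probe sets, and 2 related genes. Same-numbered pools deviated together only weakly (r = 0.056 across probe sets). That value cannot show whether they were paired, since the noise of single arrays enters it. The labels give them the same number and name no pairing. The filter on dim probe sets leaves 6 of the 14 GABA probe sets without a test, of which 5 had at least 1 array at or below the floor, where values have no order.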
